A study of Arabidopsis thaliana with 3 samples.

Results

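ATHILA6 elements are Gypsy retrotransposons that lie mostly around the Arabidopsis centromeres, and their 24-nt small RNAs were read over 209 differentially methylated regions. These are the distinct regions, by chromosome, start and end, for which every repeat name in the deposited tables begins with ATHILA6. They make up 209 of 4481 distinct regions. Of these, 152 lie in ATHILA6A and 57 in ATHILA6B, and 193 are 100 bp wide, the others being 52 to 300 bp.

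Athila elements are long Gypsy elements of the pericentromeric heterochromatin. Their copies carry DNA methylation in the CG, CHG and CHH contexts, where H is any base but G. RNA polymerase IV, whose largest subunit is NRPD1, starts the synthesis of most 24-nt siRNAs, and these guide DNA methylation back to the loci they come from. DDB2 is a damage sensor of nucleotide excision repair.

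Total small RNA was sequenced from whole Arabidopsis thaliana seedlings, 10 days old and grown in vitro. There was 1 library each of ddb2-3 (insertion DsLoxHs195_05H), nrpd1a (insertion Salk_583051) and WT, and no other allele or treatment is named for any of them. By its title the study is about global repair factors and the methylome. The ddb2-3 comparison asks how siRNA levels differ without DDB2, and nrpd1a shows the levels without RNA polymerase IV. The tables cover CG, CHG and CHH regions with higher (hyper) or lower (hypo) methylation. The pair of genotypes in which methylation was compared is not given in the sources used here.

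Levels are in RPM, reads scaled to the size of the library, as the authors deposited them. The values are whole multiples of the worth of 1 read, which is 0.120 RPM in ddb2-3, 0.727 RPM in nrpd1a and 0.169 RPM in WT. Over the 209 regions this gave 37075 reads in ddb2-3, 29 in nrpd1a and 16311 in WT. A read in an overlap of regions counts in each. With 1 library per genotype no difference has a replicate check. No test of the genotypes was possible, and every interval below is an exact 95% binomial (Clopper-Pearson) interval of counting error only. Transcripts of DDB2 and NRPD1, and markers of tissues, are not in these tables, so the labels were not checked against them. In whole seedlings, fewer cells that make a siRNA and less siRNA per cell cannot be told apart.

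The sequences that follow come from the RefSeq copy of the TAIR10 assembly, 5′ to 3′, with the strand in brackets. The first set shows 5 of 8 homologous regions, group H3, which had the highest median ddb2-3 to WT ratio of all groups of at least 4 homologous ATHILA6 regions. Capitals mark bases covered by a 24-base window, the length of these siRNAs, that is also present in another region of the group.
chr1:14082701-14082800 (+): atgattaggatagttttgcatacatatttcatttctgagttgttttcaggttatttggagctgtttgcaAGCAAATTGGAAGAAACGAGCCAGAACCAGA
chr2:2578001-2578100 (-): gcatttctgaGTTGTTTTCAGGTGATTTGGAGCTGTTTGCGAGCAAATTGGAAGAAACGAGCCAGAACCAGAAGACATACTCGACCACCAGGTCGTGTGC
chr2:5985101-5985200 (+): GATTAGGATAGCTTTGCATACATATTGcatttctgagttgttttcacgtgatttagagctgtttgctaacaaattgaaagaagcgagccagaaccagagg
chr3:13653101-13653200 (+): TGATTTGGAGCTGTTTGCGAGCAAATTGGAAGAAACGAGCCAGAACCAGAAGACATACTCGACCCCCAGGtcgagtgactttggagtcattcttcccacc
chr5:11926501-11926600 (+): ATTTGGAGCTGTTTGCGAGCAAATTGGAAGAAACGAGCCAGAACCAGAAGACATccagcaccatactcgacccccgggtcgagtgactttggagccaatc

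The next set shows the region with the highest WT level in ATHILA6A and in ATHILA6B, then the region with the lowest ddb2-3 to WT ratio in each among those of at least 5 RPM in ddb2-3 or WT. Capitals here mark bases covered by a 24-base window that occurs once in the genome, so that a 24-nt siRNA lying wholly in lower-case bases has another perfect match.
chr5:11586401-11586500 (+): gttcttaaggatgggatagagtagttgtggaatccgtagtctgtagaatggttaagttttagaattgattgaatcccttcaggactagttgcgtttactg
chr5:11990501-11990800 (+): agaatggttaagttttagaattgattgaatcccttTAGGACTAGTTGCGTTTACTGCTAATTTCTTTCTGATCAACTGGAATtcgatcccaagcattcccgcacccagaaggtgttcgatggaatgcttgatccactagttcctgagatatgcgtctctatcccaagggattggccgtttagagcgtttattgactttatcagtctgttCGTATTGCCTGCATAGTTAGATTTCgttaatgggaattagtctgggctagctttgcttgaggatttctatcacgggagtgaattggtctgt
chr2:3644601-3644700 (+): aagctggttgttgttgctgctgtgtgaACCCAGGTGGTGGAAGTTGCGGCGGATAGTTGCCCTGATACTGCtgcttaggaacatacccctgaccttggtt
chr1:15048001-15048100 (+): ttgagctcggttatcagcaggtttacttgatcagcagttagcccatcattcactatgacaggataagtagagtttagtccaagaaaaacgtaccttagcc

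One ATHILA6A region holds a mature miRNA sequence, miR854. The annotation has 5 MIR854 loci, all on chromosome 5 and all with the same mature sequence of 21 bases, gATGAGGAtagggaggaggag, in which capitals mark the seed. In the region itself capitals mark the whole mature sequence.
chr5:11690001-11690100 (-): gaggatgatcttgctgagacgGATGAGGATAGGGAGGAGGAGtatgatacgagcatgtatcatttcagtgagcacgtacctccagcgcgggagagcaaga

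The last set shows 4 regions whose repeat is named ATHILA6A but which lie in extensin genes or an extensin pseudogene. Capitals mark TCTCCACCACCACCATACGTCTACA, the longest stretch common to all 4. Read from its first base it codes for serine, a run of prolines and then tyrosine, valine and tyrosine, a repeat unit of extensins, which are structural proteins of the cell wall. The stretch, searched on both strands, was found in 4 of 4481 distinct regions (0.0893%), which are these 4.
chr2:10623601-10623700 (+): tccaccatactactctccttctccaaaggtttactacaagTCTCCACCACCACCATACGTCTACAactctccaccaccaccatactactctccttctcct
chr5:13434801-13434900 (+): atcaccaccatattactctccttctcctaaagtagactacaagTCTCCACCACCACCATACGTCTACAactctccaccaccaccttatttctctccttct
chr5:19891701-19891800 (-): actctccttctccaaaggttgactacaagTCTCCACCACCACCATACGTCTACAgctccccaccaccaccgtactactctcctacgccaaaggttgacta
chr5:19892401-19892519 (-): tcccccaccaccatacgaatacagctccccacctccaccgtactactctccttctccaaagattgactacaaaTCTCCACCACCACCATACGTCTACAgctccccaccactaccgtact

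In the ddb2-3 library the ATHILA6 regions together held more 24-nt siRNA than in the WT library. The 209 regions summed to 4442 RPM in ddb2-3 and 2758 RPM in WT, a log2 ratio of 0.69 (0.66 to 0.71). The median region had 11.5 RPM in ddb2-3 and 6.93 RPM in WT, and the levels spanned 0.839 to 209 RPM in ddb2-3 and 0.169 to 120 RPM in WT. On single regions log2(RPM + 1) was compared, which understates differences of low regions, and the median log2 ratio was 0.59, against 0.17 over all 4480 regions of at least 1 RPM in a library. All 209 ATHILA6 regions reached that level. Their log2 ratios ran from -0.47 to 1.65.

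By direction alone, 194 of the 209 ATHILA6 regions (92.8%) were above WT in ddb2-3, against 63.4% of all regions. At least 2-fold higher were 34 (16.3%), against 5.22% of all regions, and none was at least 2-fold lower, against 1.67%. The nearest region inside the 2-fold limit, chr1:15046501-15046600, had 30.8 RPM in ddb2-3 and 14.9 RPM in WT. The nearest outside it, chr3:14796101-14796200, had 13.1 RPM in ddb2-3 and 6.09 RPM in WT. An exact binomial test of the recovered reads, which compares these 2 libraries and not the genotypes, called 105 ATHILA6 regions higher (50.2%, against 19.3% of all regions) and 0 lower (against 7.03%), after Benjamini-Hochberg adjustment over all regions. All 34 regions past the 2-fold limit were among the 105.

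The median of all regions was also above WT in ddb2-3. Over the 4462 regions with reads in both libraries, the median ddb2-3 to WT ratio was 1.15, or 0.20 on the log2 scale. A difference in the scale of the libraries and one in siRNA cannot be told apart here. Relative to it the summed ATHILA6 log2 ratio was 0.49 and the median 0.40. Then 176 regions were above WT, against 49.9% of all regions, 18 were at least 2-fold higher, against 2.99%, and 0 were at least 2-fold lower, against 2.03%.

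**Figure D1:**
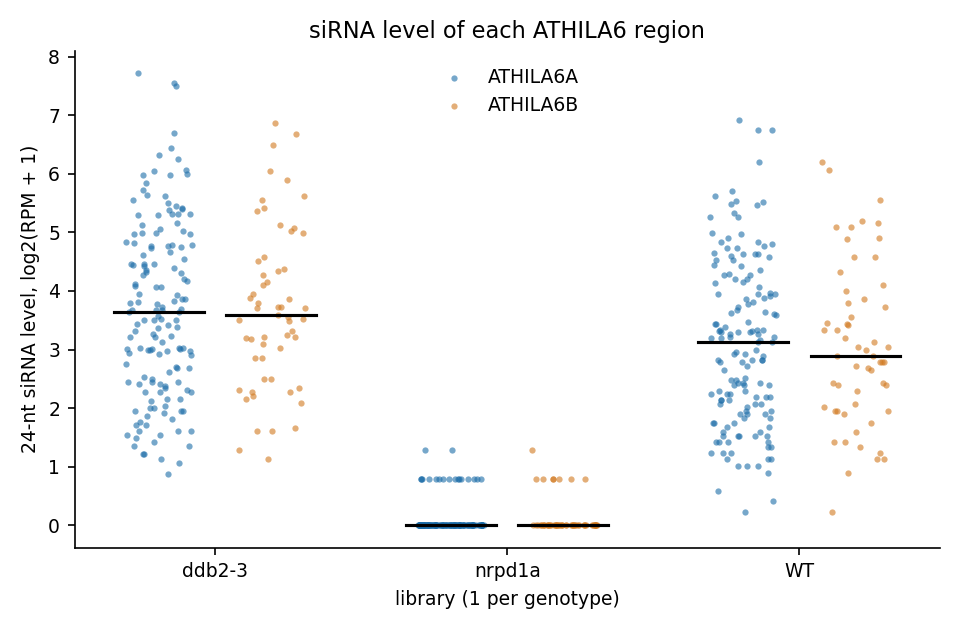
Level of each of the 209 ATHILA6 regions as log2(RPM + 1) in the ddb2-3, nrpd1a and WT libraries (1 library each), ATHILA6A in blue and ATHILA6B in orange. Each point is a region and each bar the median of its family. Most points of nrpd1a lie at 0, and the highest is at 1.45 RPM.

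Related elements near the centromeres show where ATHILA6 stands. The 313 ATHILA2 regions summed to 9640 RPM in ddb2-3 and 6434 RPM in WT, a log2 ratio of 0.58 (0.57 to 0.60). The 345 regions of other ATHILA families summed to 3874 RPM in ddb2-3 and 2633 RPM in WT, a log2 ratio of 0.56 (0.53 to 0.59). The ATHILA6 ratio of 0.69 lay above both intervals. The median of single regions was 0.59 for ATHILA6, 0.58 for ATHILA2 and 0.48 for the other ATHILA families. At least 2-fold higher were 8.63% of the ATHILA2 regions and 9.86% of the other ATHILA regions. By direction alone, 94.2% of the ATHILA2 regions and 86.1% of the other ATHILA regions were above WT, against 92.8% in ATHILA6. In these 2 sets, too, 0 regions were at least 2-fold lower, so neither trait is particular to ATHILA6. The 1803 other regions within 3 Mb of a centromere summed to 32477 RPM in ddb2-3 and 29310 RPM in WT, a log2 ratio of 0.15 (0.14 to 0.16). Whether these differences between families exceed the spread between plants was not tested.

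ATHILA6A and ATHILA6B had like ratios. ATHILA6A summed to 3295 RPM in ddb2-3 and 2050 RPM in WT, a log2 ratio of 0.68 (0.65 to 0.72). ATHILA6B summed to 1147 RPM in ddb2-3 and 708 RPM in WT, a log2 ratio of 0.70 (0.64 to 0.75). Above WT were 139 of 152 ATHILA6A and 55 of 57 ATHILA6B regions. At least 2-fold higher were 22 in ATHILA6A (14.5%) and 12 in ATHILA6B (21.1%).

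Among the 4 CHG and CHH classes the ATHILA6 ratio hardly varied, whether methylation was called higher or lower. The 106 CHG-hyper regions summed to 1920 RPM in ddb2-3 and 1213 RPM in WT, a log2 ratio of 0.66 (0.62 to 0.70). The 40 CHG-hypo regions summed to 733 RPM in ddb2-3 and 460 RPM in WT, a log2 ratio of 0.67 (0.61 to 0.74). Hyper and hypo regions thus had overlapping intervals in this context. The 52 CHH-hyper regions summed to 1603 RPM in ddb2-3 and 971 RPM in WT, a log2 ratio of 0.72 (0.68 to 0.77), and all 52 were above WT. The 10 CHH-hypo regions summed to 202 RPM in ddb2-3 and 123 RPM in WT, a log2 ratio of 0.72 (0.60 to 0.85), with 8 above WT. Over all distinct regions of the same classes the ratios were more spread, at 0.37 for CHG-hyper, 0.20 for CHG-hypo, 0.08 for CHH-hyper and -0.03 for CHH-hypo. These sets differ in position. In the same order, 82.2%, 67.8%, 47.0% and 42.0% of their regions lie within 3 Mb of a centromere, against 90.0% to 100% in the ATHILA6 classes. Class ratios of other ATHILA families were not computed, so whether the evenness is particular to ATHILA6 was not tested.

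**Figure D2:**
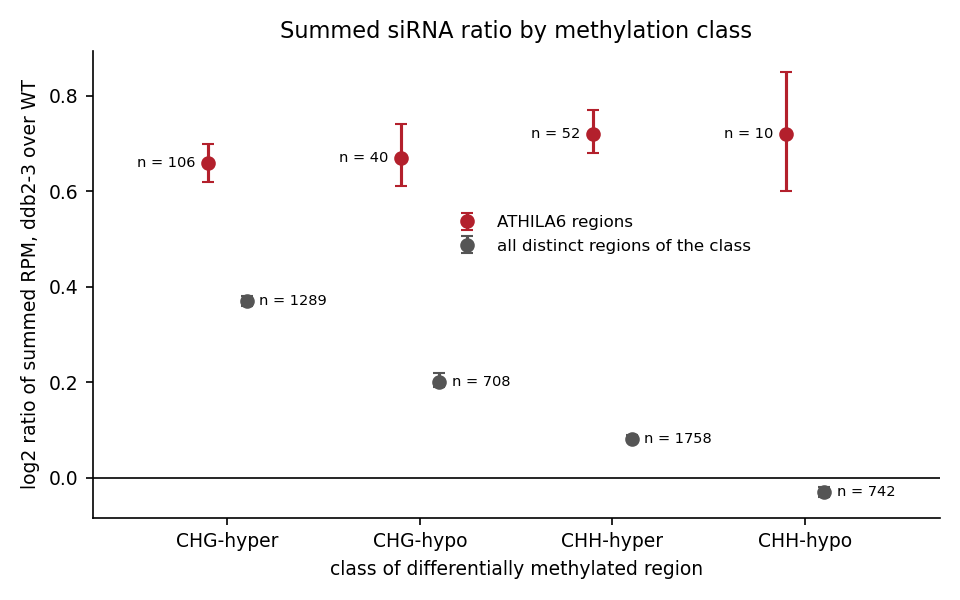
Log2 ratio of summed RPM, ddb2-3 over WT, by class of methylation difference, for ATHILA6 regions (red) and all distinct regions of the class (grey, ATHILA6 included). Bars are exact 95% intervals of counting error and n is the number of regions. The ATHILA6 points lie between 0.66 and 0.72 in every class plotted, while those of all regions lie between -0.03 and 0.37.

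Within the families, the small CHH-hypo class was less even. The 7 ATHILA6A regions of this class summed to 137 RPM in ddb2-3 and 70.7 RPM in WT, a log2 ratio of 0.96 (0.80 to 1.12). The 3 ATHILA6B regions summed to 65.1 RPM in ddb2-3 and 51.9 RPM in WT, a log2 ratio of 0.33 (0.12 to 0.53). Few regions stand behind both values.

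The 4 ATHILA6 regions of the CG classes did not share a direction. Of the CG-hyper ones, chr1:15487101-15487200 in ATHILA6B had 13.5 RPM in ddb2-3 and 5.92 RPM in WT, a ratio of 2.29 (1.55 to 3.45). The ATHILA6B region chr1:15048001-15048100, which is also CHG-hyper and lies in the pseudogene AT1G40095, had 7.19 RPM in ddb2-3 and 7.27 RPM in WT. Its ratio was 0.989, and the interval of 0.657 to 1.50 includes 1. The ATHILA6A region chr5:11834401-11834500, in the pseudogene AT5G32179, had 3.00 RPM in ddb2-3 and 0.338 RPM in WT. The WT value is 2 reads, and the ratio of 8.86 has an interval of 2.21 to 77.2. The CG-hypo region, chr5:13434801-13434900, had 2.88 RPM in ddb2-3 and 2.87 RPM in WT. It is one of the extensin regions.

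Sequence groups the regions further. Each member was aligned to the genome, and alignments of at least 80% identity over 80% of its length were kept. It was joined to another member that such an alignment overlapped by at least 50 bases. Groups were chained through these links, so not every pair in a group is linked directly. This put 122 regions into 30 groups and left 87 alone, and 10 groups had at least 4 regions. Of the 122, 87 have at least 1 24-base window that also occurs in another member of their group and 35 have none. Where windows are shared, a read can match several members, which are then not separate observations. The groups were read as descriptions, with H3 singled out after its values were seen.

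Of the 10 groups of at least 4 regions, H3 had the highest ddb2-3 to WT ratio of sums. Its 8 regions, on chromosomes 1, 2, 3 and 5 and in 8 annotated elements, summed to 137 RPM in ddb2-3 and 50.6 RPM in WT, a log2 ratio of 1.44 (1.26 to 1.63), and all 8 were above WT. At least 2-fold higher were 6 of the 8, with or without the scaling. The group holds 5 ATHILA6A and 3 ATHILA6B regions, 6 of them CHG-hyper, and no nrpd1a read.

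The 8 regions of H3 each had their own level. Among ATHILA6B regions of at least 5 RPM in ddb2-3 or WT, the highest ratio was at chr1:14082701-14082800, in an exon of the pseudogene AT1G37050. It had 8.51 RPM in ddb2-3 and 2.03 RPM in WT, a ratio of 4.19 (2.26 to 8.49). The ATHILA6A region with the highest ratio on the same condition, chr5:11926501-11926600, had 6.95 RPM in ddb2-3 and 1.86 RPM in WT, a ratio of 3.74 (1.94 to 7.89). Both are low regions with wide intervals. Both reached 5 RPM in ddb2-3 only, so the condition itself favours high ratios among such regions. The region chr2:2578001-2578100 had 20.6 RPM in ddb2-3 and 6.76 RPM in WT, a ratio of 3.05 (2.15 to 4.41). At chr3:13653101-13653200 there were 32.2 RPM in ddb2-3 and 11.2 RPM in WT, a ratio of 2.89 (2.20 to 3.84). At chr5:11697101-11697200, the most covered and the only CHH-hypo one, there were 38.6 RPM in ddb2-3 and 15.7 RPM in WT, a ratio of 2.45 (1.94 to 3.12). These more covered regions were the ones with most sequence in common. The region chr3:13622401-13622500 had 12.9 RPM in ddb2-3 and 4.23 RPM in WT, a ratio of 3.06 (1.97 to 4.94). The lowest ratios of the group were at chr3:11900201-11900300, with 10.5 RPM in ddb2-3 and 5.41 RPM in WT, and at chr2:5985101-5985200, with 6.83 RPM in ddb2-3 and 3.38 RPM in WT.

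What the H3 regions share is visible in the letters printed for them. The alignments that link them, which can run past the edge of the other region, were 87.0% to 99.0% identical. The longest stretch present in all 8 is 15 bases, CGAGCCAGAACCAGA. Searched on both strands, it was found in 8 of 4481 distinct regions (0.179%), which are these 8. From 5.19% to 87.0% of a region's 24-base windows occur in another H3 region. In 6 of the 8 a further copy lies on the same strand 7.58 to 9.72 kb away. Long terminal repeats are the direct repeats at both ends of an element, and whether these copies are such repeats was not tested. The share of windows in common was 5.19% in both regions with the lowest ratios and 10.4% in chr1:14082701-14082800, which had the highest. How far shared reads set the common direction was not tested.

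**Figure D3:**
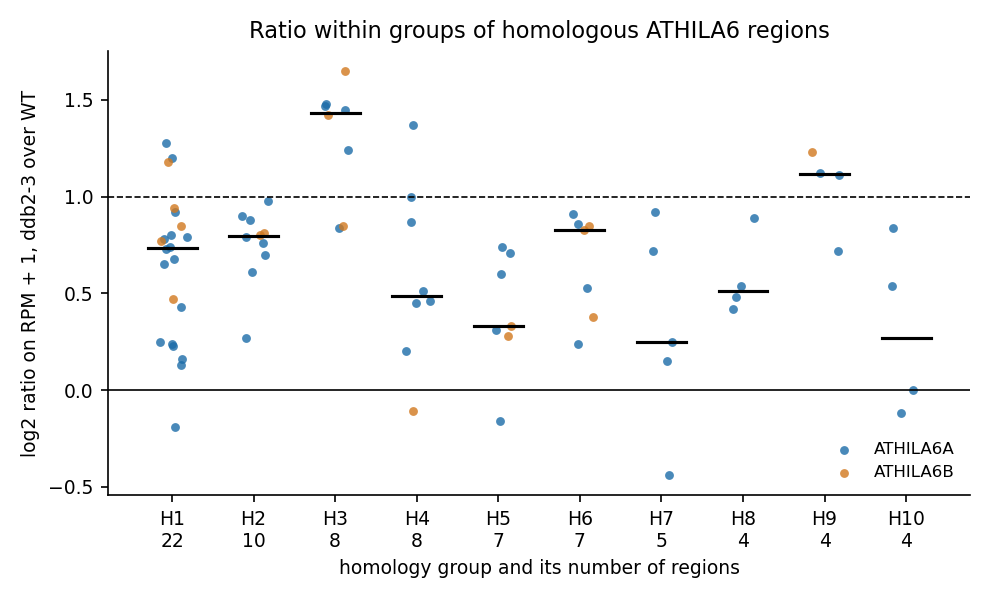
Log2 ratio on RPM + 1, ddb2-3 over WT, of each region in the 10 groups of at least 4 homologous ATHILA6 regions, ATHILA6A in blue and ATHILA6B in orange. Bars are group medians, the solid line is no difference and the dashed line 2-fold. The medians run from 0.25 in H7 to 1.43 in H3.

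The most covered regions were in the largest group, H1, with 22 regions. They summed to 1171 RPM in ddb2-3 and 712 RPM in WT, a log2 ratio of 0.72 (0.67 to 0.77), and 21 of the 22 were above WT. The highest, chr5:11586401-11586500, had 209 RPM in ddb2-3, 0 in nrpd1a and 120 RPM in WT, a ddb2-3 to WT ratio of 1.74 (1.59 to 1.90), and 0% of its 24-base windows are unique. The 300 bp region chr3:13662701-13663000 had 179 RPM in ddb2-3, 0 in nrpd1a and 107 RPM in WT, a ratio of 1.67 (1.52 to 1.84). In ATHILA6B the highest was chr5:11990501-11990800, also 300 bp and in H1, with 101 RPM in ddb2-3, 1.45 RPM in nrpd1a and 72.4 RPM in WT. Per 100 bp it holds less than chr5:11945601-11945700 of group H2, which had 116 RPM in ddb2-3, 0.727 RPM in nrpd1a and 65.9 RPM in WT. The group also holds a low region with a high ratio, chr5:12414701-12414800, with 7.19 RPM in ddb2-3 and 2.37 RPM in WT, and the lowest of its ratios, at chr3:13586301-13586400, with 6.71 RPM in ddb2-3 and 7.78 RPM in WT. The 10 highest of the 209 regions held 27.6% of the ddb2-3 sum and 26.7% of the WT sum.

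Next to H3 in the ddb2-3 to WT ratio of sums came group H9. Its 4 regions summed to 132 RPM in ddb2-3 and 61.0 RPM in WT, a log2 ratio of 1.12 (0.94 to 1.29), with 3 at least 2-fold higher, or 1 relative to the median region. The 10 regions of H2 summed to 389 RPM in ddb2-3 and 215 RPM in WT, a log2 ratio of 0.86 (0.76 to 0.95). The 5 regions of H7 had the lowest sum ratio of the 10 groups, with 63.1 RPM in ddb2-3 and 53.6 RPM in WT, a log2 ratio of 0.24 (0.03 to 0.44), or 0.04 relative to the median region. H7 holds the lowest ratio among ATHILA6A regions of at least 5 RPM in ddb2-3 or WT, at chr2:3644601-3644700 in AT2G09187. This region had 3.83 RPM in ddb2-3 and 5.58 RPM in WT, a ratio of 0.687 (0.409 to 1.15), and reached 5 RPM in WT only.

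**Figure D4:**
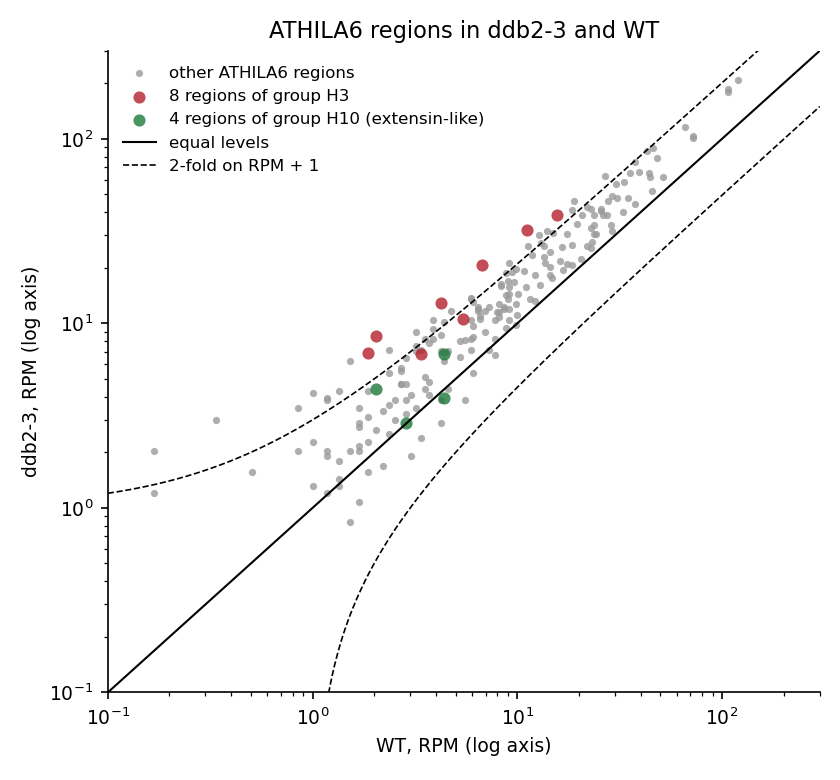
Level of each ATHILA6 region in ddb2-3 (vertical) against WT (horizontal), in RPM on log axes. Red points are the 8 regions of H3, green the 4 extensin-like regions of H10 and grey the others. The solid line is equal levels and dashed lines are 2-fold on RPM + 1. Above the upper dashed line lie 34 regions and below the lower one 0.

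The low end was made of weakly covered regions. Of the 15 regions not above WT, 13 are ATHILA6A and 2 ATHILA6B, none exceeded 7.78 RPM in WT, and the interval of every one of them included a ratio of 1. Among ATHILA6B regions of at least 5 RPM in ddb2-3 or WT, the lowest ratios after chr1:15048001-15048100 were already above WT. The region chr5:11990201-11990300 had 31.5 RPM in ddb2-3 and 29.1 RPM in WT, a ratio of 1.08 (0.891 to 1.32). At chr4:3743401-3743500 there were 11.1 RPM in ddb2-3 and 9.98 RPM in WT, a ratio of 1.12 (0.797 to 1.58). At the other end, chr4:4410801-4410900 in the pseudogene AT4G07600 had 6.23 RPM in ddb2-3 and 1.52 RPM in WT, a ratio of 4.09 (2.0 to 9.45). This region is not part of H3 and reached 5 RPM in ddb2-3 only. By WT level, the 43 regions of at least 20 RPM all lay above WT in ddb2-3, with a log2 ratio of 0.65 (0.62 to 0.69), and 1 of them was at least 2-fold higher. The 83 regions below 5 RPM had a log2 ratio of 0.84 (0.74 to 0.93), 72 lay above WT and 19 (22.9%) were at least 2-fold higher. WT is the divisor of the ratio, so sorting by WT level can itself raise ratios in the low set.

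The 209 regions lie in 91 annotated elements. Of these elements 83 summed above WT in ddb2-3 by any amount, among them all 49 with at least 2 regions. The lowest log2 ratio of the 49 was 0.06 (-0.96 to 1.11), in an ATHILA6B element on chromosome 5 from 11466801 to 11467200. Next came 0.12 (-0.45 to 0.71), in an ATHILA6B element on chromosome 3 from 13551101 to 13557094. With ddb2-3 divided by the median ratio of 1.15, both elements fell below WT, at -0.14 and -0.08. Elements of other families were not counted in this way. The longest series was 13 regions of an ATHILA6A element on chromosome 1, from 15460701 to 15486400. They summed to 307 RPM in ddb2-3, 0 in nrpd1a and 163 RPM in WT, a log2 ratio of 0.92 (0.81 to 1.02), and all 13 were above WT, in 4 different methylation classes. Of these regions 12 hold no unique 24-base window. In the 8 elements with at least 5 regions the log2 ratio ran from 0.50 to 0.92.

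Some ATHILA6A copies carry annotated loci of the miRNA miR854, a known repressor of UBP1b, a gene for an RNA-binding protein. The regions nearest to the 5 MIR854 loci are 0 to 511 bp away and belong to 4 elements. The 22 ATHILA6 regions of these elements summed to 677 RPM in ddb2-3, 2.91 RPM in nrpd1a and 455 RPM in WT, a ddb2-3 to WT log2 ratio of 0.57 (0.51 to 0.64), and all 22 were above WT. The CHH-hypo region chr5:11690001-11690100, which holds the mature sequence of MIR854d at 11690059 to 11690079 on the minus strand, had 8.27 RPM in ddb2-3, 0 in nrpd1a and 3.55 RPM in WT. These values count 24-nt reads only, so the 21-base miRNA itself is not in them.

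The repeat name and the gene annotation differ for some members. The 4 extensin regions form a homology group of their own, H10. Of these, chr2:10623601-10623700 lies in the coding sequence of EXT6 (AT2G24980) and had 3.95 RPM in ddb2-3 and 4.40 RPM in WT, and chr5:13434801-13434900 lies in that of EXT13 (AT5G35190). Neither was higher in ddb2-3 beyond counting error. The other pair lies in the pseudogene EXT11 (AT5G49080). There chr5:19891701-19891800 had 6.83 RPM in ddb2-3 and 4.40 RPM in WT, a ratio of 1.55 (0.961 to 2.57), and chr5:19892401-19892519 had 4.43 RPM in ddb2-3 and 2.03 RPM in WT, a ratio of 2.18 (1.11 to 4.60). No nrpd1a read fell in any of the 4. Without them the ATHILA6 sum kept its log2 ratio of 0.69 over 205 regions. Of the other members, none lies in a protein-coding gene of the annotation. Pseudogenes hold 121 members, with a log2 ratio of 0.64 (0.60 to 0.68), EXT11 included, and 86 lie outside annotated genes, with 0.72 (0.69 to 0.76).

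Along the chromosomes, 206 of the 209 regions lie within 3 Mb of a centromere, and the 3 outside are extensin regions. On chromosome 1 the 44 regions summed to 835 RPM in ddb2-3 and 473 RPM in WT, a log2 ratio of 0.82 (0.76 to 0.88). On chromosome 4 the 37 regions summed to 600 RPM in ddb2-3 and 396 RPM in WT, a log2 ratio of 0.60 (0.53 to 0.67). The intervals of these 2 chromosomes do not overlap, but they hold counting error only, and regions can share reads. Whether the chromosomes differ beyond the spread between plants was not tested. Chromosomes 2, 3 and 5, with 18, 35 and 75 regions, had log2 ratios of 0.77, 0.69 and 0.65. Levels were higher close to the centromere. The 70 regions within 0.25 Mb had a median of 14.0 RPM in ddb2-3 and 9.47 RPM in WT, and the 36 regions at 1 to 2 Mb a median of 7.67 RPM in ddb2-3 and 4.40 RPM in WT. The log2 ratio of the sums was 0.71 (0.68 to 0.75) within 0.25 Mb, 0.70 (0.65 to 0.75) from 0.25 to 0.5 Mb, 0.61 (0.53 to 0.70) from 0.5 to 1 Mb and 0.62 (0.53 to 0.71) from 1 to 2 Mb. The 5 regions from 2 to 3 Mb had 0.47 (0.19 to 0.75).

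**Figure D5:**
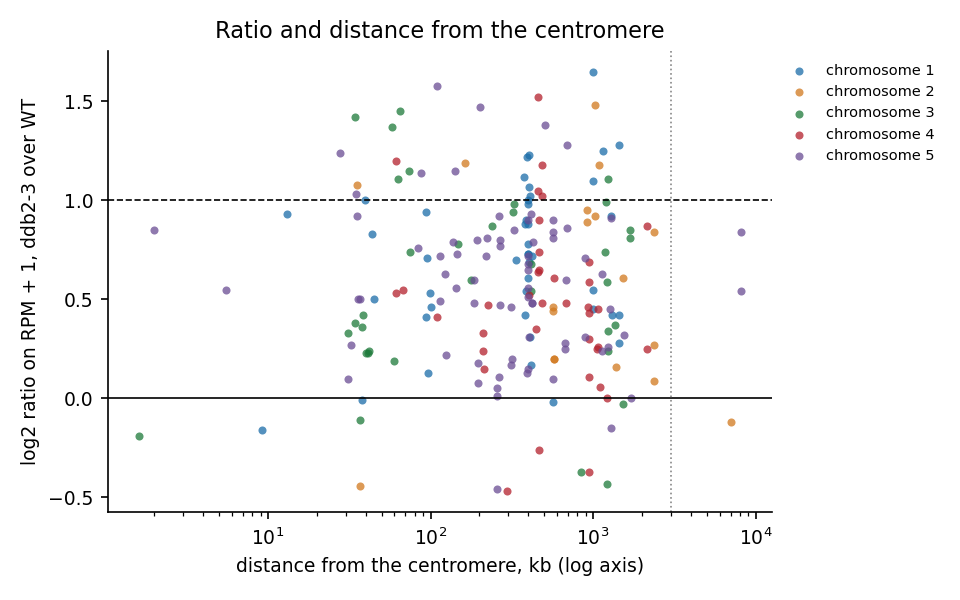
Log2 ratio on RPM + 1, ddb2-3 over WT, of each ATHILA6 region against its distance from the centromere in kb (log axis), coloured by chromosome. The solid line is no difference, the dashed line 2-fold and the dotted line 3 Mb. Regions above the dashed line lie from 27.8 kb to 1440 kb from the centromere.

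Repetition went with the level more than with the ratio. Across the 209 regions the WT level and the median genome count of their 24-base windows had a Spearman rho of 0.57, while the ddb2-3 to WT log2 ratio had rho values of 0.11 with that count, 0.12 with GC content and 0.02 with the WT level. These describe regions that share libraries and sequence. Of the 209 regions, 71 hold no unique 24-base window, and 46 hold none even among windows that overlap their edges. The 46 still summed to 1381 RPM in ddb2-3 and 841 RPM in WT, so reads with several genomic matches are part of the values. If such reads were counted at each match, the sums count them more than once and the intervals are too narrow. A region's level would then also rise with its number of copies through the counting itself. The rho of 0.57 cannot tell this apart from a higher siRNA level. The 51 regions in which at least 50% of windows are unique summed to 425 RPM in ddb2-3 and 257 RPM in WT, a log2 ratio of 0.73 (0.64 to 0.81), and the 71 without one had 0.69 (0.65 to 0.72). In 64 regions a further copy lies on the same strand 3 to 15 kb away. These summed to 1698 RPM in ddb2-3 and 986 RPM in WT, a log2 ratio of 0.78 (0.74 to 0.83), and the other 145 had 0.63 (0.60 to 0.66). The 64 include 6 of the 8 regions of H3, a group with a log2 ratio of 1.44. They also include all 13 regions of the chromosome 1 element with the longest series, which had 0.92. The ratio of the 64 without these regions was not computed.

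In nrpd1a the 24-nt siRNAs of ATHILA6 were nearly all missing. The 209 regions summed to 21.1 RPM in nrpd1a and 2758 RPM in WT, so that nrpd1a kept 0.764% (0.511 to 1.10) of the WT level, against 3.54% (3.43 to 3.65) over all distinct regions. These are shares of sums, and a few regions can set them. Over all distinct regions the highest region alone held 463 of the 3023 RPM of nrpd1a, and the share without it was not computed. ATHILA2 regions kept 1.03% (0.827 to 1.26) and other ATHILA regions 2.76% (2.24 to 3.36). In the other ATHILA regions 1 region held 45.1 of the 72.7 RPM of nrpd1a, and the rest kept 1.05% (0.743 to 1.44), a split made after the values were seen. The ATHILA6 interval overlaps that of ATHILA2 and that of this remainder. No nrpd1a read fell in 183 ATHILA6 regions (87.6%), against 77.1% of all regions, 78.9% of ATHILA2 regions and 92.2% of other ATHILA regions. A further 23 had 1 read and 3 had 2 reads. On log2(RPM + 1), 201 regions (96.2%) were at least 2-fold lower in nrpd1a, against 92.9% of all regions. Taking 3 reads as the least nrpd1a level a region can have, the count was 124 of the 209 regions. Over all regions it was 2552 of 4480 (57.0%), so the ATHILA6 share was then close to that of all regions.

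The depth of nrpd1a limits what single regions show. A count of 0 there allows up to 3 reads, or 2.18 RPM, and 174 of the 209 regions had a WT level above this. For chr5:11586401-11586500, with no nrpd1a read and 120 RPM in WT, the level was at least 55.2-fold lower, and for chr3:13662701-13663000 at least 49.3-fold lower. The bound is per library and takes the WT level as measured. The regions with 2 nrpd1a reads were chr2:4991101-4991200, chr5:11990501-11990800 and chr5:12610801-12610900, with 1.45 RPM each in nrpd1a, against 18.4, 72.4 and 24.2 RPM in WT. By family, nrpd1a kept 0.709% of WT in ATHILA6A and 0.923% in ATHILA6B, from 20 and 9 nrpd1a reads.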

How the data were processed

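For each of 3 small RNA libraries the authors deposited 6 tables, 1 per class of differentially methylated region, with a level in RPM per region. The submitters' processing notes name TAIR10, bedtools, Bowtie and CASAVA 1.8.2. Not given in the sources used here are the mismatches allowed, the treatment of reads with several matches and the reads behind the RPM denominator. The deposited RPM values were whole multiples of 1 step per library, and 100% gave whole reads within 0.1 read, for normalising totals of 8345931 (ddb2-3), 1376238 (nrpd1a) and 5913669 (WT) reads. An exact binomial test on them called 867 regions higher and 315 lower in ddb2-3 after adjustment at 0.05.

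Regions were collapsed to distinct positions. Sums were compared as ratios without a pseudocount, single regions on log2(RPM + 1) by a 2-fold size rule, among regions of at least 1 RPM in a library. Named regions were, per family and among those of at least 5 RPM in ddb2-3 or WT, the 3 highest and 3 lowest ratios, the 2 highest WT levels, and the 2 highest nrpd1a levels of at least 3 reads (none had 3), plus CG-class members, those over 3 Mb from a centromere and those next to the 2-fold limit. The other regions printed were named after their values were seen. The members, lists and groups were chosen with earlier results of these data known. Sequence, 24-base window counts and genes came from RefSeq (blastn 2.17.0, pyfaidx 0.9.0.4). Of 341 gene entries in the tables, 334 overlapped the same gene there (97.9%). Centromere positions are those in general use for TAIR10. Scripts used Python 3.11.15, pandas 2.3.3, numpy 2.4.6, SciPy 1.17.1 and matplotlib 3.10.9, and the calls were tested on simulated data. Alternatives were another scaling, filter, pseudocount, count test and sets without overlapping, highest, multi-class or extensin regions.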

Additional observations from a re-analysis of the deposited data

Results flagged for a closer look

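A further 14 regions list ATHILA6 together with another repeat and belong to none of the ATHILA sets above, though they count among all distinct regions. They were picked out because they carry siRNA outside those ATHILA sets. They summed to 480 RPM in ddb2-3, 1.45 RPM in nrpd1a and 307 RPM in WT, a ddb2-3 to WT log2 ratio of 0.65 (0.57 to 0.73), or 0.45 relative to the median region. Of the 14, 12 were above WT in ddb2-3 and 0 at least 2-fold higher or lower. Their median log2 ratio was 0.47, and 13 had no nrpd1a read.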

How the results depend on the processing

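Of 60 alternative values for 14 results, 46 stayed within the counting interval or within 1.5 times the count, and none changed sign. Dividing ddb2-3 by the median ratio gave a log2 ratio of sums of 0.49 in place of 0.69 over all ATHILA6 regions, 0.49 in ATHILA6A, 0.50 in ATHILA6B, 0.46 for CHG-hyper regions and 0.47 for CHG-hypo ones, 0.53 for both CHH-hyper and CHH-hypo ones, and a median of 0.40. Regions at least 2-fold higher numbered 34, against 18 after this scaling and 20 with a pseudocount of 2 RPM. The count test on reads, which sets no minimum size, called 105 higher. With nrpd1a levels under 3 reads set to that level, 124 in place of 201 regions were at least 2-fold lower, and of the 126 regions of at least 5 RPM in WT 103 had no nrpd1a read. Without the 4 extensin regions, an alternative chosen after seeing the data, the sum, the median and both counts stayed as they were. Leaving out the other ATHILA region with the highest nrpd1a level, also chosen after seeing the data, gave 1.05% in place of 2.76% of WT kept. No paired analysis was possible because each genotype has 1 library. Depth limits nrpd1a most, where 1 read is worth 0.727 RPM, and for the same reason no library could be left out.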
